A study of Sus scrofa with 2 samples.

Results

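The multiciliated cell fate regulators described here are 10 genes taken by symbol, not by a rule on their measured values: GMNC, MCIDAS, MYB, TP73, CCNO, CDC20B, DEUP1, FOXJ1, RFX2 and RFX3. Of these, 9 were measured among the 25880 genes of both count tables, and CDC20B was not analysed here. The values come from single nuclei of the olfactory neuroepithelium of newborn piglets (Sus scrofa), taken from frozen, sectioned tissue and captured in droplets with 10x Genomics chemistry. The study has 1 library from a CFTR knockout piglet, which is CFTR-null, and 1 library from a wild type control piglet. The CFTR protein is an epithelial anion channel, and mutations in its gene cause cystic fibrosis.

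A multiciliated cell, such as the ciliated cell of the airway lining, carries many motile cilia, each grown from a centriole made while the cell differentiates. GMNC and MCIDAS, coiled-coil relatives of geminin that act with E2F factors, start the programme; MYB and TP73 are transcription factors that act early in it, and CCNO, CDC20B and DEUP1 serve the mass production of centrioles. DEUP1 builds the deuterosome, the platform on which many of the new centrioles form. FOXJ1, RFX2 and RFX3 are transcription factors that switch on the genes of the cilium itself. The olfactory sensory neuron also bears several cilia on its dendrite, which in mammals do not beat but hold the odorant receptors, and in the mouse its precursors have been seen to amplify centrioles.

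After filtering, the CFTR knockout library held 5761 nuclei with 15142882 UMIs (unique molecular identifiers, each counting a captured transcript once) and the wild type library 4536 nuclei with 17249149 UMIs, with medians of 2093 and 2967 UMIs per nucleus. Mitochondrial transcripts took 1.31% of knockout and 2.81% of wild type UMIs, and the libraries shared 8 barcodes. CFTR itself was at 12.7 CPM (UMIs of the gene per 1e6 UMIs of all genes; 95% interval 11 to 14.7) in the knockout library and at 86.8 CPM (82.4 to 91.3) in the wild type library, the direction of the labels. Nuclei were grouped into 24 clusters without the 9 members, and the clusters were named from marker lists. Names carry "-like" because they were rebuilt here, and a difference from the study's own cell types may come from that. Since there was 1 library per genotype, nothing was tested and no difference has a replicate check: each value stands for 1 animal. Intervals on CPM are exact Poisson, those on ratios exact conditional binomial and those on shares exact Clopper-Pearson, all at 95% and all covering counting error only.

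The ciliated-like class held 462 knockout nuclei, 8.02% of that library (7.33 to 8.75), and 30 wild type nuclei, 0.661% of that library (0.447 to 0.943). It met 23 of its 25 markers, and all 25 in knockout nuclei and 24 in wild type nuclei had a UMI, with DNAI1 at 0 in the wild type ones. Mature neuron-like nuclei numbered 888 (knockout) and 880 (wild type), immature neuron-like nuclei 564 and 909, and precursor-like nuclei 118 and 183. The mature class was made of a cluster of 134 knockout and 787 wild type nuclei and a cluster of 754 knockout and 93 wild type nuclei, and these also met 8 and 7 of the ciliated markers. The precursor-like class rested on 5 of 13 markers, NEUROD1, HES6, EZH2, TOP2A and KIT. Fibroblast-like nuclei, 818 among knockout and 769 among wild type nuclei, served as a class that should lack the programme. Class size and depth differ between the libraries, so the 30 wild type ciliated nuclei limit every wild type value of that class.

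In the wild type library all 9 members had their highest CPM in the ciliated-like class, GMNC through a single UMI. In the knockout library this held for 6 of 9. There, FOXJ1 was as high in an unnamed cluster of shallow nuclei (106 CPM against 101 CPM in ciliated nuclei), and GMNC and CCNO, with few UMIs, were nominally higher in other groups, GMNC in cluster 21 (2.53 against 2.06 CPM) and CCNO in endothelial-like nuclei (6.67 CPM from 3 UMIs against 6.18 CPM). Setting ciliated against mature neuron nuclei, a gene was called when it differed at least 2-fold, had at least 20 UMIs in both groups together and had an interval that left out 1. By this rule 6 of 7 members with enough UMIs were higher in ciliated nuclei of the knockout library and 0 were lower, where 24.5% of all genes tested were called higher and 14.3% lower. In the wild type library 6 of 6 were higher and 0 lower, against 14.4% of all genes in each direction. The median member log2 ratio was 2.31 in the knockout library over the members tested, beside 0.23 for all genes, and 3.50 beside -0.12 in the wild type library.

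**Figure D1:**
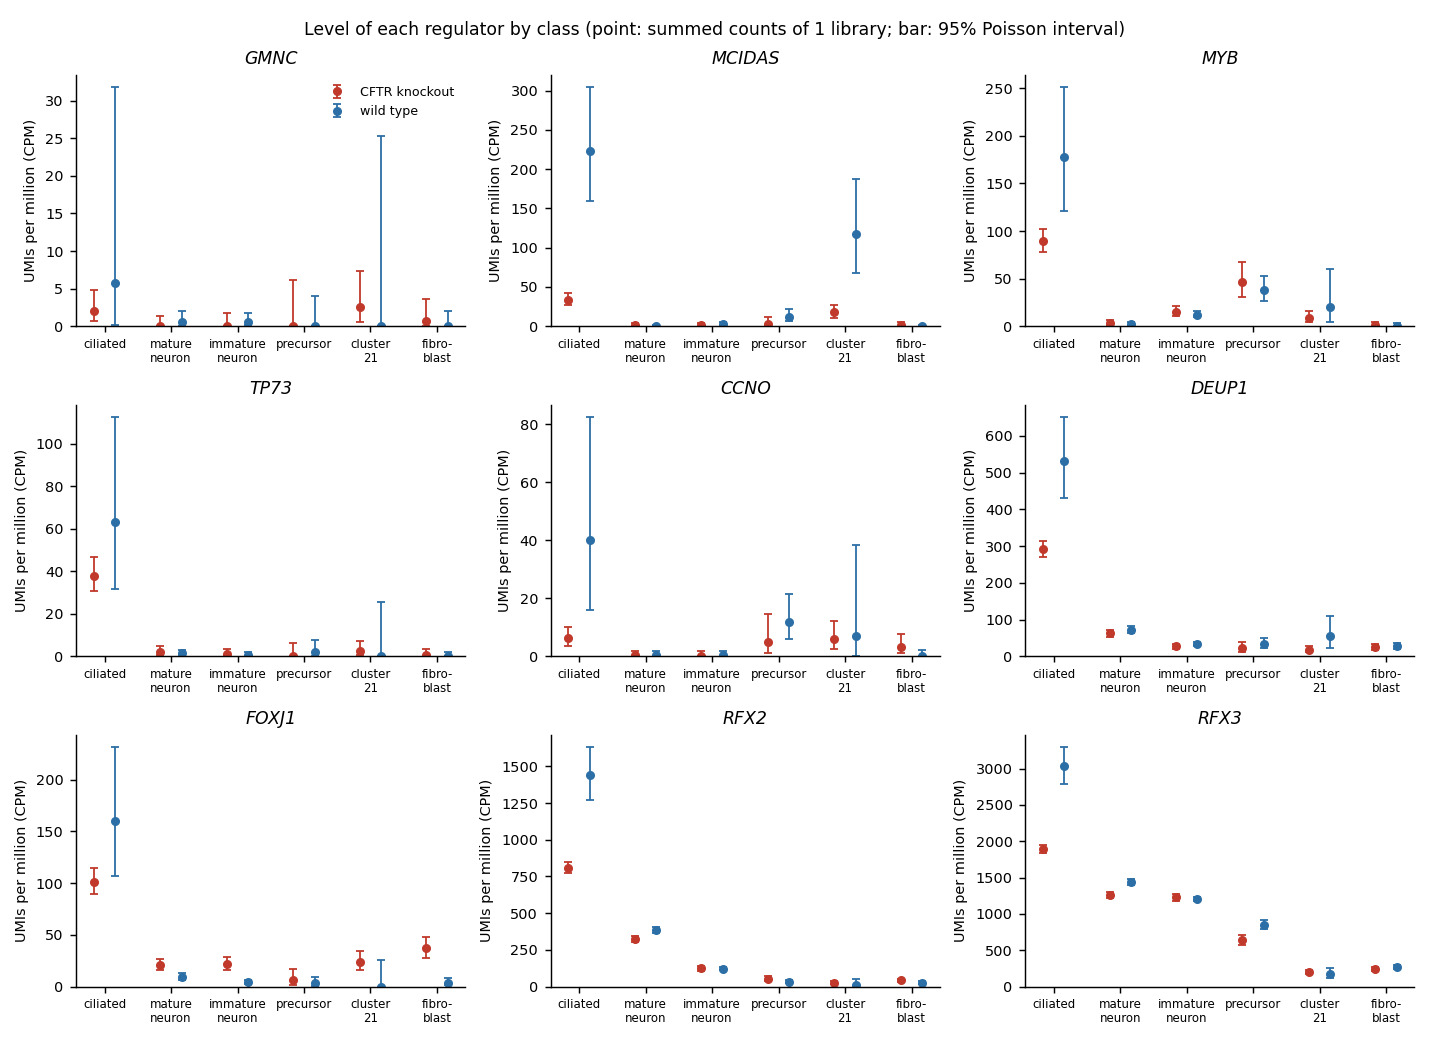
Level of each member in CPM (a linear axis of its own for each member) in ciliated, mature and immature neuron, precursor, cluster 21 and fibroblast-like nuclei, with the CFTR knockout and the wild type library as separate points and 95% exact Poisson bars. RFX3 stays high through the neuronal classes (1256 CPM in knockout and 1442 CPM in wild type mature neuron nuclei), whereas MYB and TP73 are highest in the ciliated class, as is MCIDAS through a few nuclei.

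At the head of the programme, GMNC was close to the limit of detection. It had 9 UMIs in the whole knockout library and 7 in the wild type library, of which 5 and 1 lay in ciliated nuclei, so no ratio is given for it. MCIDAS reached 33.8 CPM (26.9 to 41.9, 82 UMIs) in knockout ciliated nuclei, against 1.80 CPM in knockout mature neuron nuclei. In the wild type library it reached 223 CPM (159 to 305, 39 UMIs) in ciliated nuclei, against 0.542 CPM in mature neuron nuclei. These UMIs did not spread over the class: they came from 11 of the 462 knockout nuclei and 2 of the 30 wild type nuclei, so the Poisson intervals understate the spread. Its log2 ratio of ciliated over mature neuron nuclei was 4.23 (2.95 to 5.89) in the knockout library and 0.25 (-1.87 to 2.37) without the nuclei that had at least 4 MCIDAS UMIs, 7 of them ciliated, so the call rests on those. The wild type ciliated nuclei had no MCIDAS UMI without them. Of all its UMIs, 59.4% among knockout and 36.1% among wild type nuclei lay in ciliated nuclei, which held 16% and 1.01% of the UMIs of all genes.

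MYB, the transcription factor better known from blood progenitors, was seen in many more ciliated nuclei. It was at 89.8 CPM (78.3 to 103) in knockout ciliated nuclei, with a UMI in 148 of them, and at 177 CPM (121 to 252) in wild type ciliated nuclei, with a UMI in 15. Knockout mature neuron nuclei had 3.6 CPM and wild type ones 2.17 CPM, giving log2 ratios of ciliated over mature neuron of 4.64 (3.74 to 5.72) among knockout and 6.35 (5.20 to 7.69) among wild type nuclei. TP73, a relative of p53 and p63, was at 37.9 CPM (30.6 to 46.5, 92 UMIs) in knockout and at 63.0 CPM (31.4 to 113, 11 UMIs) in wild type ciliated nuclei. It was the member most restricted to the ciliated class, which held 84.4% of its UMIs among knockout and 47.8% among wild type nuclei. Mature neuron nuclei of the knockout library had 6 TP73 UMIs and those of the wild type library 5, and fibroblast-like nuclei had 1 and 0.

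Among the genes of centriole production, CCNO, cyclin O, was sparse, with 15 UMIs in 9 knockout ciliated nuclei (6.18 CPM, 3.46 to 10.2) and 7 UMIs in 2 wild type ciliated nuclei (40.1 CPM, 16.1 to 82.6). DEUP1 was far better covered. It was at 293 CPM (271 to 315) in knockout ciliated nuclei and 532 CPM (430 to 652) in wild type ciliated nuclei, against 62.9 CPM (54.0 to 73.0) and 72.6 CPM (64.2 to 81.9) in mature neuron nuclei of the knockout and the wild type library. The log2 ratio of ciliated over mature neuron nuclei was 2.22 (1.98 to 2.46) among knockout and 2.87 (2.52 to 3.22) among wild type nuclei. The mature neuron level of DEUP1 lay above that of fibroblast-like nuclei, which had 25.0 CPM (17.7 to 34.3) among knockout and 28.4 CPM (21.1 to 37.3) among wild type nuclei. It was not particular to neurons. Glia-like nuclei had 43.8 CPM (26.4 to 68.4) among knockout and 42.1 CPM (24.1 to 68.3) among wild type nuclei. Cluster 12, which met gland markers, had 69.1 CPM and 68.3 CPM, and wild type microvillar or ionocyte-like nuclei had 84.4 CPM. Sustentacular-like nuclei were lower, at 13.3 CPM and 10.9 CPM.

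The cilium-gene activators fell in an order of breadth. FOXJ1 was at 101 CPM (89.1 to 115) in knockout and 160 CPM (107 to 232) in wild type ciliated nuclei, against 20.5 CPM (15.5 to 26.6) and 9.22 CPM (6.38 to 12.9) in mature neuron nuclei. RFX2 was at 808 CPM (773 to 845) in knockout and 1443 CPM (1270 to 1632) in wild type ciliated nuclei, against 323 CPM (303 to 345) and 386 CPM (366 to 407) in mature neuron nuclei. RFX3 was at 1887 CPM (1832 to 1942) in knockout and 3034 CPM (2782 to 3304) in wild type ciliated nuclei, against 1256 CPM (1214 to 1298) and 1442 CPM (1404 to 1481). The log2 ratio of ciliated over mature neuron nuclei was 2.31 (1.88 to 2.75) for FOXJ1, 1.32 (1.21 to 1.44) for RFX2 and 0.59 (0.52 to 0.65) for RFX3 in the knockout library, where RFX3 was below 2-fold. In the wild type library these log2 ratios were 4.12 (3.34 to 4.89), 1.90 (1.70 to 2.10) and 1.07 (0.94 to 1.20).

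**Figure D2:**
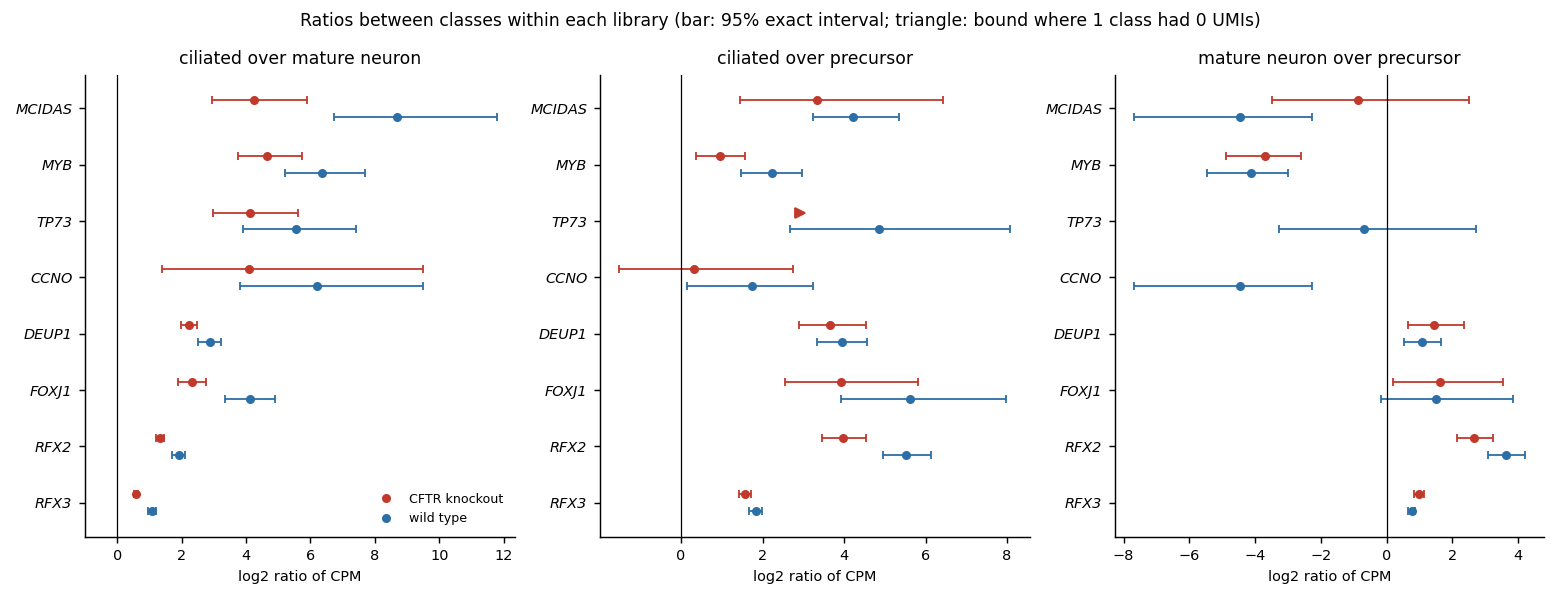
Log2 ratio of CPM of each member but GMNC for ciliated over mature neuron, ciliated over precursor and mature neuron over precursor nuclei. The CFTR knockout and the wild type library are drawn apart, with 95% exact intervals as bars and bounds as triangles. MYB has the opposite sign in the last comparison (-3.69 among knockout and -4.13 among wild type nuclei) from RFX2 (2.65 and 3.62).

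To compare nuclei of different depth, each was thinned to 1000 UMIs and shallower nuclei were left out, which kept 460 of 462 knockout and 30 of 30 wild type ciliated nuclei, 857 of 888 and 851 of 880 mature neuron nuclei, and 647 of 818 and 690 of 769 fibroblast-like nuclei. Before thinning the median depth was 3812.5 and 4855.5 UMIs in ciliated, 2856.5 and 3731.5 in mature neuron and 1617 and 2070 in fibroblast-like nuclei. RFX3 then had a UMI in 80.2% of knockout and 96.7% of wild type ciliated nuclei, and in 66.3% and 73.1% of mature neuron nuclei, while fibroblast-like nuclei gave 19.2% and 20.4%. Without thinning the RFX3 shares were 97.0% and 100% in ciliated, 87.7% and 94.5% in mature neuron and 28.4% and 34.2% in fibroblast-like nuclei. RFX2 had a UMI in 48.5% of knockout and 70.0% of wild type ciliated nuclei and in 27.3% and 30.8% of mature neuron nuclei, with 2.01% and 2.32% in fibroblast-like nuclei. Both RFX genes were thus seen in mature neuron nuclei well above the share in fibroblast-like nuclei, where RFX3 was not absent. Thinned FOXJ1 in mature neuron nuclei, 1.87% among knockout and 1.06% among wild type nuclei, was below the 3.86% of knockout fibroblast-like nuclei and above the 0.435% of wild type ones. In the knockout library the FOXJ1 level of mature neurons was therefore no higher than in fibroblast-like nuclei. By CPM, other knockout classes lay on both sides of mature neuron nuclei (20.5 CPM). Sustentacular-like nuclei were at 14.4 CPM and precursor nuclei at 6.64 CPM, and endothelial-like nuclei were at 33.4 CPM and cluster 21 at 23.6 CPM.

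Calls were also made against fibroblast-like nuclei, the class that should lack the programme. Ciliated nuclei had 7 of 8 members tested higher and 0 lower in the knockout library, where 20.0% and 16.5% of all genes were, and CCNO was the member not called (15 UMIs against 5). The wild type library had 6 of 6 higher and 0 lower, with a background of 13.8% and 20.2%. The MCIDAS call in both libraries rests on the ciliated nuclei with at least 4 MCIDAS UMIs. Without them MCIDAS was at 2.13 CPM in knockout ciliated nuclei, beside 1.97 CPM in knockout fibroblast-like nuclei. In the wild type library both classes then had 0 MCIDAS UMIs. Mature neuron nuclei had 3 of 4 members higher and 0 lower among knockout nuclei, against 18.1% and 21.4% of all genes, and 4 of 4 and 0 among wild type nuclei, against 19.7% and 23.2%. RFX2, RFX3 and DEUP1 were the members higher in mature neurons of both libraries, by log2 ratios of 2.92, 2.36 and 1.33 in knockout and 3.85, 2.44 and 1.36 in wild type nuclei. FOXJ1 gave -0.84 (-1.40 to -0.29) in knockout and 1.24 (0.05 to 2.66) in wild type nuclei. Precursor nuclei had 2 of 5 members higher (MYB and RFX3) and 1 lower (FOXJ1, log2 ratio -2.47) in the knockout library, against 18.1% and 16.7% of all genes, and 2 of 4 higher (MYB and RFX3) and 0 lower in the wild type library, against 19.2% and 15.9%.

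The neuronal lineage was followed through precursor-like, immature and mature neuron-like nuclei. RFX2 was at 51.5 CPM (35.0 to 73.0) in knockout and 31.5 CPM (21.1 to 45.2) in wild type precursor nuclei. It was at 123 CPM and 122 CPM in immature and at 323 CPM and 386 CPM in mature neuron nuclei of the knockout and the wild type library. Mature over immature, the log2 ratio of RFX2 was 1.40 among knockout and 1.66 among wild type nuclei, and mature over precursor it was 2.65 and 3.62. RFX3 was at 636 CPM and 854 CPM in precursor, 1226 CPM and 1203 CPM in immature and 1256 CPM and 1442 CPM in mature neuron nuclei of the knockout and the wild type library. Its log2 ratio of mature over precursor nuclei was 0.98 among knockout and 0.76 among wild type nuclei, under 2-fold in both.

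MYB ran the other way along this lineage. It was at 46.5 CPM (30.9 to 67.2, 28 UMIs in 21 nuclei) in knockout and 38.0 CPM (26.4 to 52.8, 35 UMIs in 24 nuclei) in wild type precursor nuclei. Immature neuron nuclei had 15.1 CPM (10.3 to 21.5) and 12.0 CPM (9.13 to 15.4), and mature ones 3.6 CPM (1.73 to 6.61) and 2.17 CPM (0.936 to 4.27). The log2 ratio of MYB for mature over precursor nuclei was -3.69 among knockout and -4.13 among wild type nuclei. Over fibroblast-like nuclei, precursor nuclei differed in MYB by a log2 ratio of 5.14 among knockout and 6.09 among wild type nuclei. MYB is also known as a factor of cycling cells, and the precursor class was named in part by the cell cycle genes TOP2A and EZH2.

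For mature over precursor nuclei, 3 of 5 members tested in the knockout library were called higher (RFX2, FOXJ1 and DEUP1) and 1 lower (MYB), where 11.3% of all genes were called higher and 17.8% lower. Among wild type nuclei 2 of 5 were higher (RFX2 and DEUP1) and 1 lower (MYB), against 13.1% and 20.0% of all genes. For mature over immature nuclei, RFX2 and DEUP1 were called higher and MYB lower in both libraries, with FOXJ1 (log2 ratio 1.21) also higher in the wild type library. The background there was 5.51% of genes higher and 7.66% lower among knockout and 6.07% and 14.0% among wild type nuclei. For immature over precursor nuclei, RFX2 and FOXJ1 were called higher and MYB lower in the knockout library, and RFX2 higher and MYB and MCIDAS lower in the wild type library. All-gene shares were 8.25% higher and 14.5% lower among knockout, and 7.76% higher and 11% lower among wild type nuclei. The wild type MCIDAS call depends on 1 immature neuron nucleus, which held 9 of the 16 UMIs of that class. Without it there were 7 UMIs in immature and 11 in precursor nuclei, too few for the 20 UMIs that a call needs.

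MCIDAS and CCNO had a few UMIs in precursor nuclei. MCIDAS had 2 UMIs in knockout precursor nuclei (3.32 CPM, 0.402 to 12.0) and 11 UMIs in 10 wild type precursor nuclei (11.9 CPM, 5.96 to 21.3). CCNO had 3 UMIs in the knockout (4.98 CPM, 1.03 to 14.6) and 11 UMIs in 8 nuclei of the wild type precursor class (11.9 CPM, 5.96 to 21.3). Fibroblast-like nuclei had 3 MCIDAS UMIs (1.97 CPM, 0.406 to 5.76) and 5 CCNO UMIs (3.29 CPM, 1.07 to 7.67) in the knockout library and 0 of either in the wild type library, so the knockout precursor counts were within the counting error of that background. Both genes had a UMI in 2 wild type precursor nuclei. No precursor nucleus had more than 2 MCIDAS UMIs, in contrast to the ciliated class, where a nucleus reached 23. TP73 had 0 UMIs in knockout and 2 in wild type precursor nuclei.

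Ciliated over precursor nuclei, 6 of 7 members tested were called higher in the knockout library, against 16.4% of all genes, and 6 of 6 in the wild type library, against 12.9%. None was called lower, where 16.1% of all knockout and 24.4% of all wild type values were. The MCIDAS call in both libraries again rests on the ciliated nuclei with at least 4 MCIDAS UMIs. Without them MCIDAS was at 2.13 CPM in knockout ciliated nuclei, beside 3.32 CPM in knockout precursor nuclei. Wild type ciliated nuclei then had 0 MCIDAS UMIs, beside 11 UMIs (11.9 CPM) in wild type precursor nuclei. The log2 ratio was 3.97 among knockout and 5.52 among wild type nuclei for RFX2, 3.93 and 5.62 for FOXJ1, and 3.65 and 3.94 for DEUP1. MYB differed less, with 0.95 (0.38 to 1.57) in the knockout library, below the call, and 2.23 (1.48 to 2.96) in the wild type library. CCNO was 0.31 (-1.51 to 2.74) and 1.75 (0.14 to 3.25) on few UMIs, so ciliated and precursor nuclei could not be told apart in the knockout library at this depth. All 7 CCNO UMIs of wild type ciliated nuclei lay in the 2 nuclei with at least 4 MCIDAS UMIs.

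MCIDAS was carried by rare nuclei. Of the knockout nuclei, 5711 had no MCIDAS UMI, 39 had 1, 1 had 2 and 10 had at least 4, and of the wild type nuclei 4508 had none, 20 had 1, 3 had 2 and 5 had at least 4, with none at 3 in either library. The gap at 3 was seen in the values, and the group of at least 4 UMIs was defined after that. These nuclei were 0.174% (0.0833 to 0.319) of the knockout and 0.110% (0.0358 to 0.257) of the wild type library, and held 70.3% and 75.9% of all MCIDAS UMIs. Of them, 7 knockout and 2 wild type nuclei were in the ciliated-like class. The others were 2 knockout nuclei and 1 wild type nucleus in cluster 21, which met secretory markers but had TP63 among its leading genes, 1 knockout nucleus among endothelial-like, 1 wild type nucleus among microvillar or ionocyte-like and 1 wild type nucleus among immature neuron-like nuclei.

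**Figure D3:**
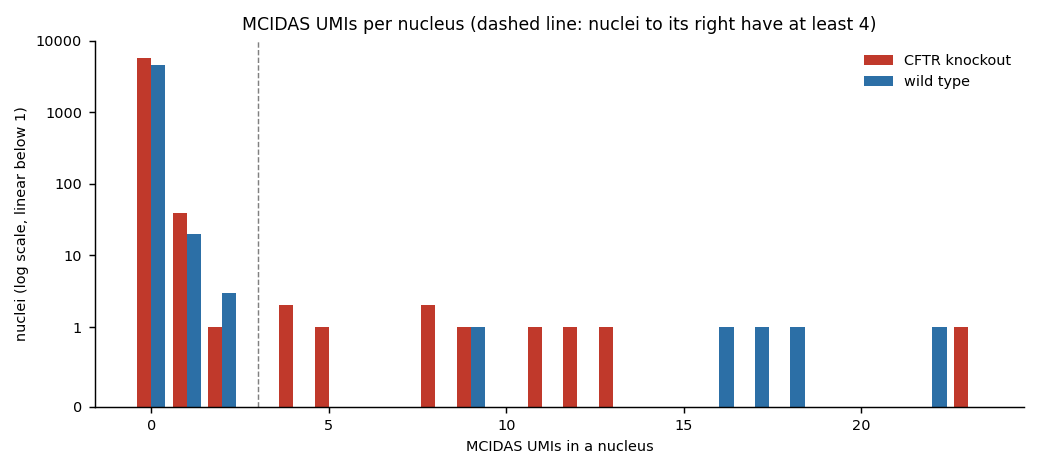
Number of nuclei (log axis, linear below 1) by MCIDAS UMIs per nucleus, as bars for the CFTR knockout and the wild type library. All but 50 knockout and 28 wild type nuclei have no MCIDAS UMI, and 10 and 5 stand apart with at least 4.

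CCNO accompanied MCIDAS in these nuclei: 8 of 10 knockout and 5 of 5 wild type nuclei had a CCNO UMI. DEUP1, RFX2 and RFX3 had a UMI in all 10 and all 5, FOXJ1 in 9 and 4, MYB in 7 and 4, TP73 in 7 and 2, and GMNC in 0 and 0. Over all ciliated nuclei, RFX3 had a UMI in 97.0% of knockout and 100% of wild type nuclei, and CCNO in 9 of 462 and 2 of 30. The chosen nuclei were deeper, with medians of 7857 and 6999 UMIs against 3812.5 and 4855.5 in the ciliated class. These counts of nuclei were not compared at like depth. Within the ciliated class, CCNO was at 132 CPM (11 UMIs) in the 7 knockout MCIDAS-high nuclei and at 1.71 CPM (4 UMIs) in the other 455 knockout nuclei, a log2 ratio of 6.27 (4.51 to 8.37). The 2 wild type MCIDAS-high ciliated nuclei had 7 CCNO UMIs and the other 28 had 0, a log2 ratio of at least 4.84 against a floor of 3 counts over the group. DEUP1 was at 1184 CPM against 261 CPM in knockout and 1902 CPM against 421 CPM in wild type nuclei, log2 ratios of 2.18 (1.86 to 2.49) and 2.18 (1.45 to 2.86). MYB was at 203 CPM against 85.8 CPM in knockout and 609 CPM against 142 CPM in wild type nuclei. RFX3 did not share the direction, with log2 ratios of 0.02 (-0.22 to 0.25) in knockout and -0.44 (-1.02 to 0.09) in wild type nuclei.

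STIL, which is needed to start a new centriole, was at 669 CPM against 50.8 CPM in knockout and 837 CPM (11 UMIs) against 12.4 CPM (2 UMIs) in wild type ciliated nuclei. The 7 knockout MCIDAS-high nuclei ran from 113 to 1760 CPM for STIL, with a median of 315 CPM. Summed over the MCIDAS-high nuclei, the motor proteins of the moving cilium were lower: the log2 ratio was -1.58 in knockout and -3.20 in wild type nuclei for DNAH5, and -0.94 and -1.98 for DNAH9. Single knockout nuclei ranged over 110 to 1847 CPM for DNAH5, below the 2973 CPM of the other knockout ciliated nuclei. For DNAH9 they ranged over 330 to 4544 CPM, beside 3412 CPM, and 1 nucleus held 77 of the 149 UMIs. Summed over the list of centriole assembly genes, the level was 4734 CPM against 2234 CPM in knockout and 7380 CPM against 1820 CPM in wild type nuclei. The summed motile cilium list was 7568 CPM against 12384 CPM and 6772 CPM against 16277 CPM, and the summed cell cycle list 646 CPM against 210 CPM and 1446 CPM against 198 CPM. These values rest on 7 and 2 nuclei chosen by their MCIDAS count, so they describe those nuclei.

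**Figure D4:**
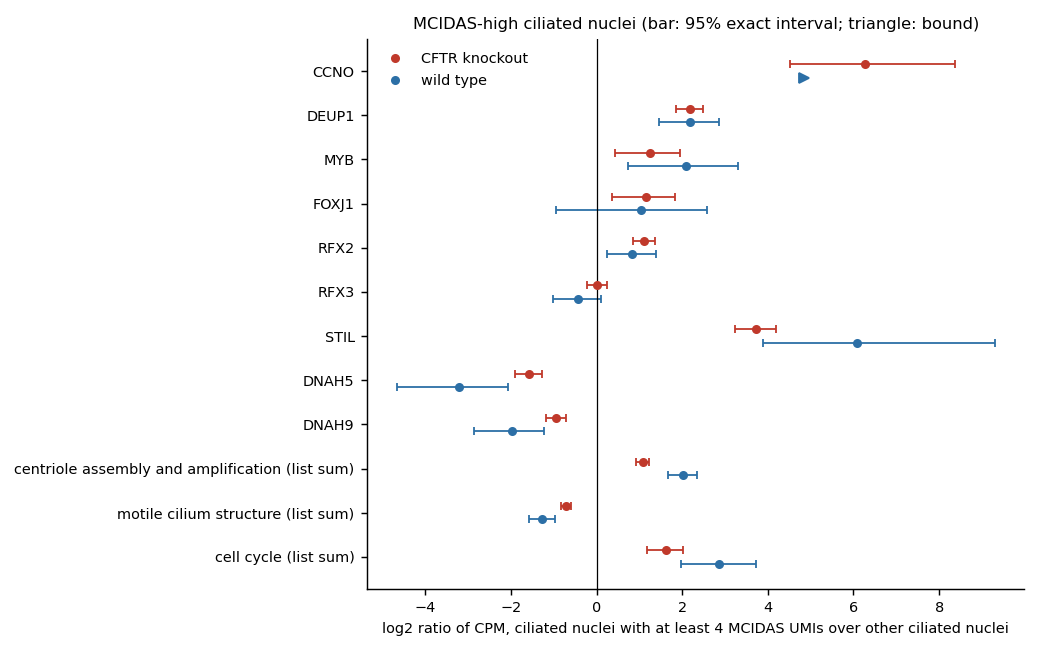
Log2 ratio of CPM of MCIDAS-high over other ciliated nuclei, with the CFTR knockout and the wild type library drawn apart and 95% exact intervals for counting error. Of the members, CCNO, DEUP1, MYB, FOXJ1, RFX2 and RFX3 are drawn, beside single genes and summed lists. CCNO, STIL and DEUP1 lie to the right of 0 and DNAH5 and DNAH9 to the left in both libraries.

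The MCIDAS-high nuclei were deep and their doublet scores high. They had a median of 7857 UMIs (3179 to 26514) among knockout and 6999 UMIs (3368 to 12853) among wild type nuclei. The percentile of their doublet score within their library ran over 35.9 to 99.7 with a median of 94.8, and 9 of 15 were above the 90th percentile. Among the nuclei removed as doublets, 2 more in the knockout library and 0 in the wild type library had at least 4 MCIDAS UMIs. BPIFB1, a secretory protein, was at 406 CPM in the knockout MCIDAS-high ciliated nuclei against 72.1 CPM in the other knockout ciliated nuclei, and at 0 UMIs in both groups of the wild type library. Of its 34 UMIs in the 7 knockout nuclei, 23 came from the deepest nucleus, and 5 of the 7 had a UMI. The part of doublets and of RNA from secretory cells in this pattern was not tested.

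The ciliated class was reclustered without the members. The nuclei with MCIDAS UMIs lay mostly in a subcluster of 99 knockout and 2 wild type nuclei, in which MCIDAS was at 128 CPM in 9 nuclei, CCNO at 21 CPM, DEUP1 at 425 CPM, RFX2 at 1088 CPM and FOXJ1 at 144 CPM. The main subcluster, 274 knockout and 26 wild type nuclei, had 3 MCIDAS UMIs in 2 nuclei (2.82 CPM). A subcluster of 55 knockout and 2 wild type nuclei led by ABCA13 was the deepest, at a median of 8832 UMIs. There FOXJ1 was at 49.1 CPM, RFX2 at 574 CPM and RFX3 at 1389 CPM. Its leading genes ABCA13, CCDC129 and ATP13A5 were also among the leading genes of a sustentacular-like cluster, and its summed sustentacular marker list was at 1486 CPM, against 733 to 919 CPM in the other subclusters. The part of sustentacular RNA in these lower levels was not tested. These subclusters differ in depth and in the genes that made them, and no order in time was drawn from them.

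The genes that work with the members were taken as lists of centriole assembly, partner and related factors, motile cilium structure and cell cycle. Ciliated over mature neuron nuclei, the centriole list had 4 of 20 genes called higher and 0 lower in the knockout library and 5 higher and 2 lower in the wild type library. Of all genes, 24.5% were called higher and 14.3% lower among knockout nuclei and 14.4% in each direction among wild type nuclei, so the centriole list was not above the all-gene share in knockout nuclei. Its median log2 ratio was 0.69 in knockout and 0.33 in wild type nuclei, where that of all genes was 0.23 and -0.12. In the knockout library PCM1, a centriolar satellite protein, differed by a log2 ratio of 1.33, STIL by 1.89 and CENPJ, a centriole length factor, by 1.42. The centrins CETN2 (0.87) and CETN3 (0.75) and CEP120 (-0.53) stayed under 2-fold. Of the partner factors, 4 of 13 tested genes were higher and 0 lower in the knockout library, among them CCNA1, a cyclin (log2 ratio 1.73), and TP63, the basal cell factor (3.22). E2F5, with which MCIDAS acts, was level at -0.01, and RFX7 (-0.60) and TFDP2, the partner of E2F factors (-0.75), were under 2-fold. Among wild type nuclei 1 of 8 partner factors was called higher and 1 lower. The median log2 ratio of these factors was 0.44 in knockout and -0.47 in wild type nuclei, and their counts of higher calls lay near those all-gene shares.

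With the same all-gene shares of 24.5% higher and 14.3% lower (knockout) and 14.4% each (wild type), the motile cilium genes had 11 of 19 called higher and 0 lower in the knockout library, and 17 of 19 and 0 in the wild type library, but most of these genes also named the class. The dynein heavy chains DNAH5 and DNAH9 gave log2 ratios of 3.08 and 2.88 in the knockout library, CFAP43 3.81, HYDIN 1.25 and SPAG6 0.76, the last under 2-fold. Of the cell cycle genes, 5 of 8 tested were called higher and 1 lower in the knockout library, and 1 of 3 higher and 0 lower in the wild type library. Median log2 ratios were 1.35 in knockout and 1.70 in wild type nuclei for the motile cilium list and 1.32 and 1.04 for the cell cycle list. NUSAP1 (1.32), KIF11 (1.83) and TOP2A (1.32) were among the higher ones, AURKB (-3.13) was the lower one and PCNA (0.11) was level. Over fibroblast-like nuclei, ciliated nuclei had 0 cell cycle genes higher and 2 of 8 lower (knockout), and 0 and 1 of 7 (wild type). All-gene shares were 20% and 16.5%, and 13.8% and 20.2%. Mature neuron over fibroblast-like nuclei had 0 higher and 7 of 8 lower, and 0 and 8 of 10. All-gene shares there were 18.1% and 21.4%, and 19.7% and 23.2%.

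Over precursor nuclei, more genes of the centriole, partner and cell cycle lists were called lower than higher. The centriole list had 1 gene higher and 10 lower of 20 in knockout ciliated nuclei, and 2 higher and 9 lower in the wild type library. Of all genes, 16.4% were called higher and 16.1% lower among knockout nuclei, and 12.9% higher and 24.4% lower among wild type nuclei. CEP152, a scaffold of centriole duplication, was at 15.2 CPM in knockout ciliated nuclei against 1076 CPM in knockout precursor nuclei, a log2 ratio of -6.14, and the wild type ratio was -5.43. STIL was at 72.1 CPM against 388 CPM, a log2 ratio of -2.43, and -2.64 in the wild type library, while CETN2 was higher at 1.10 and 2.61. MYBL1, a relative of MYB, was at 8.24 CPM in knockout ciliated against 657 CPM in knockout precursor nuclei, and had 0 UMIs in wild type ciliated against 586 CPM in wild type precursor nuclei. The cell cycle list had 0 higher and 11 of 12 genes lower among knockout and 0 higher and 10 of 12 lower among wild type nuclei, the partner factors 1 higher and 7 lower of 14 and 1 higher and 5 lower of 10. The motile cilium list had 18 of 19 and 18 of 18 higher. Median log2 ratios in knockout and wild type nuclei were -0.84 and -0.81 for the centriole list, -0.999 and -1.48 for the partner factors, -4.19 and -2.80 for the cell cycle list and 2.55 and 3.79 for the motile cilium list, beside -0.01 and -0.52 for all genes. MYB was thus high in both ciliated and precursor nuclei, whereas STIL was higher in the precursor class of this pair. CEP152 and MYBL1 were also higher there, but both were among the leading genes of the precursor-like cluster. Their direction was therefore fixed in advance and is no separate result.

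Over the 24 clusters, in which both libraries were pooled, genes with the most similar profile of log2 levels to each member were sought. The clusters share libraries and depth, so these are descriptions. TP73 was closest to LDLRAD1 (Pearson's r = 0.988), CFAP221 (0.977) and IDO2 (0.971), and FOXJ1 to QPCT (0.939), DNAAF1 (0.939) and CATIP (0.929). RFX3 was closest to VWA3A (0.946), CCDC175 (0.932) and FANK1 (0.930), and RFX2 to NEK10 (0.910) and VWA3B (0.904) among named genes. MYB was closest to TPPP (0.856), MR1 (0.80) and WDR93 (0.797), and DEUP1 to PRDM7 (0.852), CFAP44 (0.840) and GAS8 (0.814). CCNO had MCIDAS as its closest gene of all (0.851), and MCIDAS had MAB21L3 (0.835) and DMRT2 (0.819) among named genes. Between members, RFX2 and RFX3 stood at 0.799, and CCNO and RFX3 at 0.0578.

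MCIDAS and CCNO are neighbours in the pig genome, in the order CDC20B, GPX8, MCIDAS and CCNO of the RefSeq gene table of Sscrofa11.1, with DHX29 and SKIV2L2 beyond. The outer pair lay within 2-fold between ciliated and mature neuron nuclei: DHX29 was at 75.0 CPM in knockout and 68.7 CPM in wild type ciliated nuclei, against 69.4 CPM and 44.7 CPM in mature neuron nuclei, and SKIV2L2 was at 156 CPM and 120 CPM against 126 CPM and 125 CPM. GPX8 had 14 UMIs in knockout and 2 in wild type ciliated nuclei, against 4 and 1 in mature neuron nuclei, and was at 21.7 CPM and 37.3 CPM in fibroblast-like nuclei. The labels do not say whether reads of adjoining genes were kept apart by strand, so the joint counts of MCIDAS and CCNO carry that limit.

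Between the libraries, over all nuclei, 3 of 8 members tested were called higher in the knockout library, where 6.67% of all genes were, and 0 were lower, where 2.76% were. FOXJ1 was at 37.7 CPM among knockout and 6.96 CPM among wild type nuclei, a log2 ratio of 2.44 (2.15 to 2.73). TP73 was at 7.20 CPM and 1.33 CPM, a log2 ratio of 2.43 (1.77 to 3.15), and MYB at 22.5 CPM and 10.3 CPM, a log2 ratio of 1.12 (0.86 to 1.39). The other members were under 2-fold: DEUP1 at 75.4 CPM and 44.6 CPM (0.76), RFX2 at 221 CPM and 146 CPM (0.60), MCIDAS at 9.11 CPM and 6.26 CPM (0.54), CCNO at 2.71 CPM and 2.09 CPM (0.38) and RFX3 at 824 CPM and 857 CPM (-0.06). The ciliated share differed at the same time, 8.02% of knockout and 0.661% of wild type nuclei. With 1 animal each, the ciliated share of a library and its genotype cannot be told apart in these ratios.

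Within the ciliated class the direction was the other way. There 0 of 8 members were called higher in the knockout library and 2 of 8 lower, where 6.59% and 1.58% of all genes were, and all 8 log2 ratios were below 0 while the median over all genes was 0.32. The called members were MCIDAS (33.8 CPM in knockout and 223 CPM in wild type nuclei, log2 ratio -2.72, -3.29 to -2.14) and CCNO (6.18 CPM and 40.1 CPM, -2.70, -4.08 to -1.16). Both rest on the 2 wild type MCIDAS-high nuclei: without the MCIDAS-high nuclei, MCIDAS had 5 UMIs in knockout and 0 in wild type ciliated nuclei, and CCNO 4 and 0. The remaining log2 ratios were -0.98 for MYB, -0.86 for DEUP1, -0.84 for RFX2, -0.73 for TP73, -0.69 for RFX3 and -0.66 for FOXJ1, all under 2-fold, and without the MCIDAS-high nuclei they ran from -0.81 to -0.61. When each nucleus was named on its own from marker UMIs, which put 727 knockout and 173 wild type nuclei in the class, the median member log2 ratio was 0.43, against -0.86 here, so the direction depends on which nuclei are called ciliated.

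**Figure D5:**
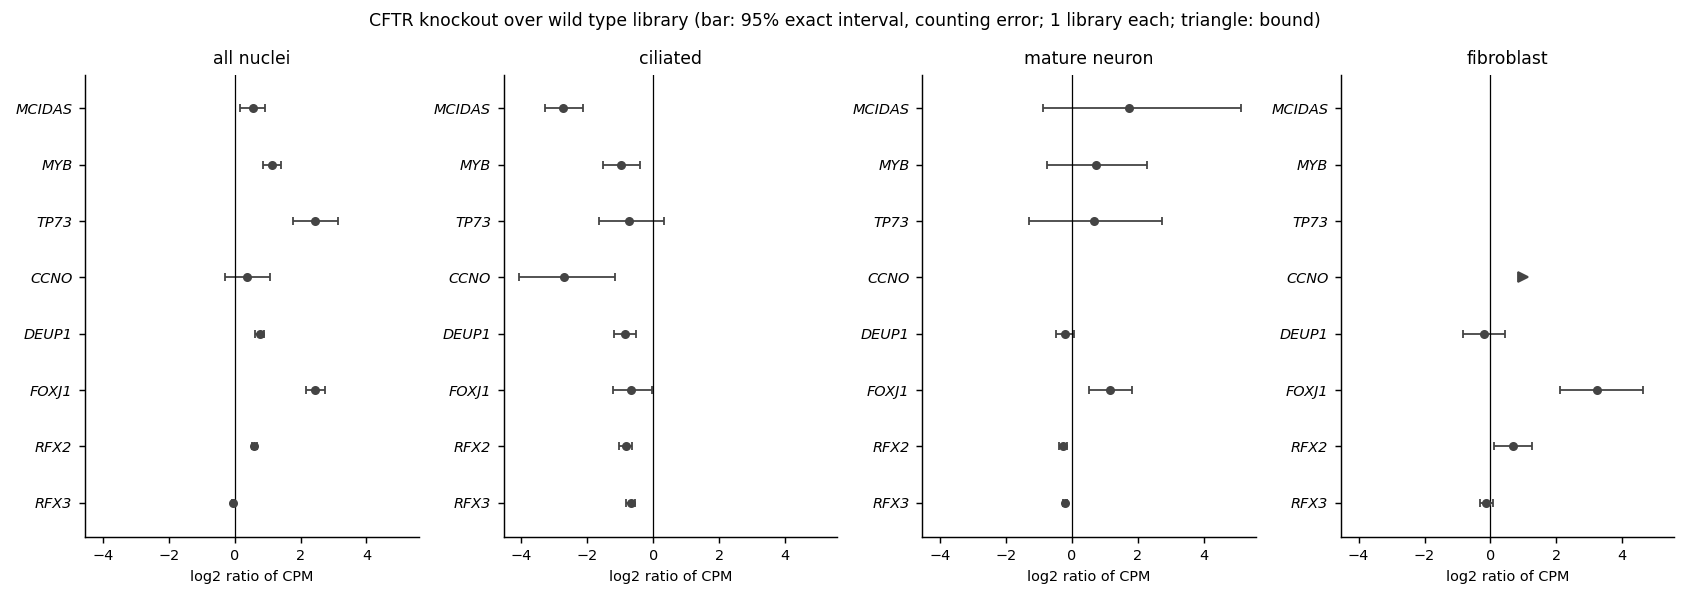
Log2 ratio of CPM, CFTR knockout over wild type library, of each member but GMNC over all nuclei and within ciliated, mature neuron and fibroblast-like nuclei. Bars are 95% exact intervals for counting error, a triangle is a bound and no mark is drawn where no ratio could be given. FOXJ1 lies right of 0 in every panel but that of the ciliated nuclei, where all members drawn lie left of 0.

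Outside the ciliated class, FOXJ1 was the member called between the libraries. It was called higher in the knockout library in mature neuron nuclei (20.5 CPM against 9.22 CPM, log2 ratio 1.15, 0.52 to 1.81, where 4.47% of all genes were called higher). It was likewise called in immature neuron nuclei (21.5 CPM against 3.99 CPM, 2.43, with 2.50% of genes higher and 6.14% lower), in sustentacular-like nuclei (14.4 CPM against 3.78 CPM, 1.93, with 4.66% higher and 2.89% lower) and in fibroblast-like nuclei (36.8 CPM against 3.90 CPM, 3.24, 2.10 to 4.62, with 5.70%). Most motile cilium genes moved with it in fibroblast-like and sustentacular-like nuclei only. In knockout fibroblast-like nuclei 13 of 16 tested were called higher and 0 lower (median log2 ratio 1.98), and in sustentacular-like nuclei 11 of 18 and 0 (1.33). In immature neuron nuclei 3 of 19 were called higher and 0 lower (0.30). In mature neuron nuclei, where FOXJ1 was also called, 0 of 19 were called in either direction (0.11). In glia-like nuclei the log2 ratio of FOXJ1 was 0.55 (-1.81 to 3.23), from 5 and 3 UMIs. No other member was called in mature neuron, immature neuron, sustentacular-like or fibroblast-like nuclei, and 0 of 4 members tested were called in precursor nuclei, where 3.21% of all genes were called higher and 2.42% lower.

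Secretory transcripts were also higher outside their own cells in the knockout library. The summed secretory marker list was at 1385 CPM in knockout and 258 CPM in wild type mature neuron nuclei, 1193 CPM and 271 CPM in immature neuron nuclei, and 1134 CPM and 300 CPM in precursor nuclei. The list was at 2297 CPM in knockout and 382 CPM in wild type fibroblast-like nuclei. The summed ciliated marker list, 25 genes, was at 776 CPM (24 genes with a UMI) in knockout and 288 CPM (22 genes) in wild type fibroblast-like nuclei and at 586 CPM and 359 CPM in sustentacular-like nuclei (25 genes in both). It was at 4814 CPM and 4826 CPM in mature neuron nuclei, a class with a high level of cilium genes in both libraries, 2671 CPM and 2262 CPM in immature neuron nuclei and 1623 CPM and 1476 CPM in precursor nuclei. The knockout cluster of 920 shallow nuclei (median 533 UMIs), to which 26 wild type nuclei belonged, had 59 FOXJ1 UMIs, or 106 CPM, near the 101 CPM of knockout ciliated nuclei. It met the secretory markers AGR2, TFF3, BPIFA1, WFDC2 and LYPD2, and its leading genes included BPIFA1 and TFF3 and also TCTEX1D4, TMEM212 and CETN2, of which CETN2 encodes a centrin. Its summed secretory list was at 9431 CPM and its summed ciliated list at 3267 CPM. The part of free RNA in the FOXJ1 values outside the ciliated class was not tested.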

How the data were processed

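Each deposited table, 1 per library, holds the authors' raw UMI counts. Cell Ranger, Seurat 4.0 and R 4.0.2 are listed, with no role, in the submitters' processing notes; genome build and annotation are not stated. Members and gene lists were chosen with earlier results of these data known. Nuclei under 200 genes were removed (1 wild type), then the 293 knockout and 178 wild type nuclei with the highest Scrublet scores (0.8% per 1000 nuclei), since its own threshold called 3 and 1. Of 8256 identifiers without a symbol, 1029 were given one. The 2000 most variable genes, without members, CFTR and mitochondrial genes, gave 30 components, 15 neighbours and Leiden clusters at resolution 1 (scanpy 1.11.5, python-igraph 0.11.9). A cluster took the name of the list with the largest share of markers met, needing 3 markers and 0.333 of the library's median depth, a rule set after the clusters were seen. A class compared by name had no more markers of another type than its own in its top 10 genes. All members were named, with the 4 list genes highest in ciliated nuclei, the 2 of largest ratio over mature neurons and 3 genes per member of like profile; other genes were chosen after their values were seen. A gene at 0 was set to a floor of 3 counts per group. Calculations were tested on simulated data (scipy 1.17.1; edgeR 4.0.16 for scaling).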

Additional observations from a re-analysis of the deposited data

How the results depend on the processing

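No paired analysis was possible because each genotype has 1 library, and for the same reason no replicate could be left out. The count of members highest in ciliated nuclei was 6 in the knockout library and 3 after thinning each nucleus; it was 9 in the wild type library and 5 when each library was clustered on its own. The median log2 ratio of ciliated over mature neuron nuclei was 4.83 in the wild type library. It was taken over the 8 members with more than 3 UMIs in at least 1 of the classes. Separate clustering of the libraries gave 3.21, naming nucleus by nucleus from marker UMIs 2.91, with 3.56 after thinning, 3.50 over members with at least 20 UMIs and 3.27 without the MCIDAS-high nuclei, the last added after the data were seen. In the knockout library it was 2.31, and 1.98 to 2.54 under the alternatives. The median log2 ratio of knockout over wild type was 0.60 over all nuclei, and 0.50 with equal weight per nucleus, 0.52 after thinning, 0.50 with TMM scaling and 0.49 with median-of-ratios scaling. In ciliated nuclei it was -0.86, against -0.49 under separate clustering and 0.43 when nuclei were named singly. MCIDAS in ciliated nuclei turned to a bound of 1.06 under separate clustering, where the 30 wild type nuclei of the class had no MCIDAS UMI. Without the MCIDAS-high nuclei, the MCIDAS log2 ratio of ciliated over mature neuron nuclei in the knockout library was 0.25, against 4.23, and its call was lost. The number of MCIDAS-high nuclei was 7 to 12 (knockout) and 5 to 8 (wild type) when the minimum was 8 or 2 UMIs or no doublets were removed. Depth limits GMNC, CCNO and TP73 most, and 30 wild type ciliated nuclei limit every value set against them.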
